A study of Arabidopsis thaliana with 30 samples.

Results

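Transcripts of the cytosolic small ribosomal subunit were followed in Arabidopsis thaliana seedlings. The 56 genes listed code for 22 proteins of that subunit, from Sa to S20 in the plant numbering. They were listed by gene ID, with no filter on a measured value, but with earlier results of these data known. All 56 were present in each of the 9 deposited tables, which together held 24721 genes. 20 of the 22 proteins had 2 to 4 gene copies here, and only S15 (AT1G04270) and S15a (AT1G07770) were listed with a single gene.

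The small subunit binds messenger RNA, scans it for the start codon and decodes it, while the large subunit joins amino acids. In plants each ribosomal protein is made from a small family of paralogous genes, and the copies are usually expressed side by side but at unequal levels. Transcription of these genes is a marker of growth: it is high in dividing tissue, and it responds to sugar, energy status and the TOR kinase. Their promoters often carry a short telomere-like element, the telo box, and GC-rich site II elements that bind TCP factors.

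Groups of 3 libraries each came from whole seedlings, 10 days old, of 5 genotypes under 2 treatments, which gives 10 groups and 30 libraries. 2OX, 4OX and 6OX overexpress MCU2, MCU4 and MCU6, genes of the mitochondrial calcium uniporter family, as YFP fusions from the constitutive 35S promoter in Col-0. The sextuple line combines mutations of the family's genes, most of them T-DNA insertions, and is a knockdown with residual transcripts. Its libraries are titled Sextuple1 where labelled CK and Sextuple where labelled AA. They are treated here as the same line, which the labels do not settle. The reference genotype is the wild type, Col-0 (Col). Seedlings were moved to liquid medium and given 50 µM antimycin A (AA), which blocks the mitochondrial electron transport chain, or the DMSO solvent (CK). The labels state 5 h and the methods section a shorter exposure, after a night in the dark. The 35S promoter is active in most tissues, so these lines do not show where an MCU gene acts. The study's detailed work on MCU2 rested on a single 2OX line picked for its high transcript level, and whether 4OX and 6OX are each a single transformant is not given in the sources used here. Nothing in the sources used here says that libraries of a group came from separate plates or days, so p-values measure only the spread between these 3 libraries.

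The tables disagree on treatment. Each column is headed by a library code, XZHU and a number, that the sample labels tie to a genotype and to AA or CK. 4 line tables set each line against Col, all under codes labelled CK. 5 AA tables set AA against CK within a genotype. All 15 columns headed AA in the AA tables were equal, read for read, to columns headed CK in the line tables, and the columns headed CK in the AA tables stand nowhere else. AOX1A (AT3G22370), the alternative oxidase gene that antimycin A is known to induce, was lower in the columns headed AA, with 10342, 7452 and 6872 normalized counts under AA and 16661, 16258 and 14795 under CK in Col. The log2 difference was -0.97 in Col, and between -1.83 (2OX) and -1.56 (4OX) in the lines, and AOX1D (AT1G32350) was also lower in all 5, so both genes go against the AA tables' headings. Each result below therefore names the table whose heading is used, and "headed AA" means the code above the column in the AA table, not an established treatment. Line effects are given first in the line tables, then among the libraries headed CK in the AA tables, and AA effects are given by the headings of the AA tables.

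Library depth was 2.56 M reads in 2OX replicate 1 of the line table, and 11.8 M to 39.1 M in the other 29 libraries (M, 1e6 reads). The members took 1.20% to 2.24% of all reads. The targeted genes matched the labels in the overexpressors: MCU2 (AT1G57610) had 6883, 5784 and 7818 normalized counts in 2OX and 440.2, 394 and 333 in Col, and the log2 fold changes of MCU4 (AT4G36820) in 4OX and MCU6 (AT5G66650) in 6OX were 10.36 and 1.68. In the sextuple line MCU6 and MCU1 (AT1G09575) fell, with log2 fold changes of -1.63 and -1.32, and MCU2 was at 0.13 with an adjusted p of 0.62 (limma). All 5 leaf, 5 root and 8 dividing-cell markers were in every table. Some of their sums differed between groups: the leaf markers summed to 138411 to 160711 normalized counts in 2OX and 289320 to 313790 in Col, and to 98394 to 289136 in 4OX and 471397 to 512350 in Col. In 6OX (250344 to 496433) and the sextuple line (355007 to 633883) they overlapped with Col (448201 to 486765 and 462791 to 500902). The dividing-cell markers summed to 1951 to 2242 in 2OX and 1399.9 to 1677 in Col, and to 2892 to 2943 in the sextuple line and 2239 to 2677 in Col. In 4OX (2387 to 3250) and 6OX (2067 to 2530) they overlapped with Col (2281 to 2738 and 2169 to 2596). The root markers summed to 1396 to 1437 in 2OX and 1177 to 1280 in Col, with no overlap. In 4OX (1704 to 2175), 6OX (1857 to 2310) and the sextuple line (1862 to 2066) they overlapped with Col (1918 to 2090, 1824 to 1981 and 1883 to 2043). The part of these 3 sets of markers in the results was not tested, and in whole seedlings a change in the number of cells of a type and one in RNA per cell cannot be told apart.

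Copies of one protein were far from equal. Levels are compared per kilobase (kb) of coding sequence, as the median normalized count per kb over the 30 libraries. AT5G20290 (S8) and AT5G18380 (S16) were highest, at 44522 and 43094 per kb, followed by AT5G15200 (S9) at 31849. Summed over copies, S16 gave 53597.5 per kb and S14 46171, while the single gene of S15a gave 13979 and the 2 copies of Sa 17821. At the other end, 9 copies lay below 5000 per kb. They were AT5G59240 (S8, 296), AT3G04770 (Sa, 635), AT4G30800 (S11, 1115), AT5G15520 (S19, 1522), AT3G57490 (S2, 1798), AT3G04230 (S16, 2063), AT5G39850 (S9, 2324), AT1G58380 (S2, 3140.4) and AT3G10610 (S17, 4976). These minor copies gave a small part of their protein's transcripts: in Col libraries headed AA, AT3G04770 made up 3.6% ± 0.0923 of the Sa transcripts, AT5G59240 0.673% ± 0.0231 of S8, AT4G30800 2.52% ± 0.21 of S11 and AT5G15520 3.44% ± 0.244 of S19 (SD, n = 3). S12 and S7 were shared more evenly, with AT2G32060 at 39.1% ± 0.72 of S12 and AT5G16130 at 41.3% ± 0.981 of S7 in the same libraries (SD, n = 3).

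Some copies cannot be separated with confidence. Coding sequences of the 50 pairs of copies were 72.3% to 98.2% identical, with a median of 85.0%, and 5 pairs reached 95%: AT1G58380 and AT1G59359 of S2, AT2G09990 and AT5G18380 of S16, and the 3 pairs among AT2G04390, AT2G05220 and AT5G04800 of S17. How the authors assigned reads that match both copies is not given in the sources used here, so values of these genes are uncertain. AT1G59359 had 0 to 102 normalized counts in a library. It is counted among the 56, but left out of rankings and of copy-to-copy ratios, which leaves 55 genes and 47 pairs.

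The promoters differ between copies of a protein, and the windows of both S12 genes and of 2 of the 3 S19 genes are shown because these copies part in the results. Windows ran from 250 bases before to 50 after the annotated gene start (RefSeq, TAIR10.1). Capitals mark the telo box AAACCCTA and the site II elements TGGGCC and TGGGCT on either strand, so that TAGGGTTT, GGCCCA and AGCCCA are the same elements read from the other strand.
AT2G32060 (S12; chr2:13640382-13640681, minus strand): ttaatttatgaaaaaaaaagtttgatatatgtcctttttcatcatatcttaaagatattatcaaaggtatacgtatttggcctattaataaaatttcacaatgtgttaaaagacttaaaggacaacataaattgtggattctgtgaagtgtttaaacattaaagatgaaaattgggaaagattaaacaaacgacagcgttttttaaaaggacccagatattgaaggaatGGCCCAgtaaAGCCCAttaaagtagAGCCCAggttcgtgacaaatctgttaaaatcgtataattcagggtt
AT1G15930 (S12; chr1:5471066-5471365, plus strand): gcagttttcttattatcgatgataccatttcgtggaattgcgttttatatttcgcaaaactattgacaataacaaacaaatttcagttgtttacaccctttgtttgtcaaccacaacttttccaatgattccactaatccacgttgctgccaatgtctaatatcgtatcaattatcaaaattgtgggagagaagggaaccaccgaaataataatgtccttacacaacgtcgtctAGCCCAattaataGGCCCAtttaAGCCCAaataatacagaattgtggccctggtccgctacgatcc
AT5G15520 (S19; chr5:5038705-5039004, minus strand): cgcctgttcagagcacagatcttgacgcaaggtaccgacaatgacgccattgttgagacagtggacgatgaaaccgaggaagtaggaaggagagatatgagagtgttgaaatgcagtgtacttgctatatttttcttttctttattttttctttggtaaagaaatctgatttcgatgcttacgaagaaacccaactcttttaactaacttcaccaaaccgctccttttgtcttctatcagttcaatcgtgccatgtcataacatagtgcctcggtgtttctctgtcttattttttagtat
AT3G02080 (S19; chr3:365327-365626, minus strand): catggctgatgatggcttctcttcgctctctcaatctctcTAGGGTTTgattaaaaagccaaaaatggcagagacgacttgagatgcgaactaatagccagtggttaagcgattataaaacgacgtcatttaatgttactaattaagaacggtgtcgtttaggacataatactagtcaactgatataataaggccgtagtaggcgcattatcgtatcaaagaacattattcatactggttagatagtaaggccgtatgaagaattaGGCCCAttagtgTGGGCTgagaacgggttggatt
Both S12 windows held site II elements and no telo box. The window of AT3G02080, a major S19 copy, held a telo box and site II elements, and that of AT5G15520, the minor S19 copy, held none of the 3. Over all members, the telo box was in 26 of 56 windows (46.4%, against 6.22% of 27443 windows of protein-coding genes), TGGGCC in 33 (58.9% against 15.5%), TGGGCT in 24 (42.9% against 14.2%) and the TATA box TATAAA in 40 (71.4% against 52.2%). Other ribosomal protein genes had similar shares, so this is not particular to the members. In 27 windows of small subunit proteins S21 to S30 the shares were 48.15%, 55.56%, 55.56% and 48.15%, in the same order. In 76 windows of large subunit proteins they were 46.05%, 69.74%, 61.84% and 64.47%. The elements can overlap at their ends and a match is a description, not a site in use. 12 members held none of the telo box and site II elements, among them 4 of the 9 minor copies (AT3G04770, AT4G30800, AT3G04230 and AT5G15520). Members with and without a telo box (25 and 30 genes) had medians of 0.43 and 0.43 for 2OX, 0.36 and 0.40 for 4OX, 0.18 and 0.26 for 6OX, and 0.41 and 0.48 for sextuple, as log2 fold changes against Col.

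In the 2OX line table nearly the whole set stood higher in 2OX than in Col. The log2 fold change was positive for 55 of 56 members, with a median of 0.42 against -0.04 over all 22705 genes tested, and 44 members had all 3 2OX libraries above all 3 Col libraries, as 16.3% of all genes did. 5 members rose by the full criterion, an adjusted p under 0.05 and a fold over 1.5 in limma, which 3.26% of all genes met in that direction, and none fell. 17 passed the adjusted p alone (4.67% of all genes). AT4G30800, the minor copy of S11, led with 749.9, 594 and 462 normalized counts in 2OX and 285, 369.6 and 301 in Col, which gave 0.90 ± 0.19 (log2 fold change ± SE), with an adjusted p of 0.0223 in limma. AT5G15520, the minor S19 copy, had 679, 935 and 644 in 2OX and 418, 499.9 and 409 in Col, a log2 fold change of 0.75 ± 0.16. Both genes had every 2OX library above every Col library. The other 3 that rose lay above 5000 per kb, though none was the highest copy of its protein: AT2G32060 (S12, 0.62), AT5G61170 (S19, 0.62) and AT4G25740 (S10, 0.59). AT2G32060 had 6457, 6172 and 4328 in 2OX and 3431, 3859 and 3558 in Col. Replicate 3 was the lowest of the 3 2OX libraries for 54 of 55 members, and replicate 1, the shallow library, the highest for 31. The least moved were AT5G59240 (S8), AT3G02560 (S7) and AT2G41840 (S2, the major copy), at 0.13, 0.14 and 0.18 with adjusted p of 0.768, 0.452 and 0.431. AT3G02560 had 4792, 4726 and 3884 in 2OX and 3939, 4141 and 4061 in Col, with overlapping groups. The count of 5 changed when 1 library was left out. It was 22 without 2OX replicate 3, 3 without 2OX replicate 1 and 2 without Col replicate 2. It was 0 without 2OX replicate 2, Col replicate 1 or Col replicate 3. The median stayed between 0.35 and 0.56 in those fits, and without the mean-variance trend of the test no member was called.

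The 4OX table gave the same number of calls. All 56 members were positive, with a median log2 fold change of 0.39 against 0.00 over all 23295 genes, and 54 had no overlap between 4OX and Col, against 18.5% of all genes. 5 members rose (2.77% of all genes) and 32 passed the adjusted p alone (4.98%). All 5 that rose were minor copies: AT4G30800 (S11, 0.95 ± 0.18), AT5G59240 (S8, 0.85 ± 0.21), AT5G39850 (S9, 0.83 ± 0.14), AT5G15520 (S19, 0.73 ± 0.16) and AT3G57490 (S2, 0.59 ± 0.09; log2 ± SE, adjusted p in limma 0.022 to 0.0472). S9 is a protein of the channel through which messenger RNA enters the subunit. AT5G39850 had 2308, 3141 and 2241 normalized counts in 4OX and 1295, 1542 and 1451 in Col. AT5G59240 had 359, 583 and 347 in 4OX and 212, 248 and 235 in Col, while the major S8 copy AT5G20290 had 43131, 40672 and 42696 in 4OX and 34387, 37533 and 36261 in Col. Replicate 2 was the highest 4OX library for both minor copies, as for 50 of 55 members, and all 3 4OX libraries lay above Col. At the low end, AT4G09800 (RPS18C of S18), AT1G07770 (S15a) and AT3G02560 (S7) were at 0.10, 0.11 and 0.13, with 95% intervals of -0.09 to 0.30, -0.09 to 0.31 and -0.06 to 0.31. Without a 4OX library 3, 3 and 1 members were called (leaving out replicates 1, 2 and 3), and without any one Col library 0 were. A fit with 1 library fewer also has less information on the spread, so a lost call does not single out the library left out. The median stayed at 0.35 to 0.43. With libraries scaled by all reads 12 members were called, and without the mean-variance trend none was.

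In 6OX no member was called by limma, edgeR or DESeq2, and none passed the adjusted p alone, against 0.138% of all genes for either criterion. At an unadjusted p under 0.05 there were 16 of 56 (3575 of 23170 over all genes, in either direction). The direction was still mostly upward: 51 members were positive, the median was 0.21 against -0.01 over all genes, and 25 had no overlap with Col, against 11.4% of all genes. The median was 0.12 without 6OX replicate 2 and 0.30 without 6OX replicate 3, and 0.18 to 0.25 without each other library. AT4G30800 was again first, with 677, 599.6 and 838 normalized counts in 6OX and 444, 573 and 466 in Col and a log2 difference of 0.51 ± 0.16 (SE, adjusted p 0.198 in limma). AT5G04800 (S17) and AT5G39850 (S9) followed at 0.45 and 0.43, and the 6OX values of AT5G39850 were close together (1802, 1836 and 1839, against 1238, 1466 and 1375 in Col). AT4G09800 (S18), AT5G62300 (S20) and AT3G02560 (S7) were lowest at -0.03, -0.03 and -0.03. Replicate 2 was the highest 6OX library for 48 of 55 members and replicate 3 the lowest for 41, as with AT5G61170 (S19), which had 9969.8, 13138 and 8786 in 6OX and 9017, 9335 and 8848 in Col.

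In the sextuple line the whole set stood higher than in Col, with the smallest spread between members (SD 0.11 over 55, against 0.14 for 2OX, 0.18 for 4OX and 0.13 for 6OX). All 56 members were positive, from 0.24 to 0.66 with AT1G59359 set aside, the median was 0.45 against -0.01 over all 23164 genes, and 53 had no overlap with Col, against 13.7% of all genes. 8 members rose (0.76% of all genes) and 25 passed the adjusted p alone (1.83%). Those that rose came from 8 genes of 7 proteins: AT5G39850 (S9, 0.66), AT5G61170 and AT5G15520 (S19, 0.66 and 0.66), AT4G25740 (S10, 0.66), AT5G18380 (S16, 0.61), AT2G32060 (S12, 0.60), AT3G04770 (Sa, 0.59) and AT4G31700 (S6, 0.59). AT5G61170 had 16205, 13750.1 and 14419 normalized counts in the sextuple line and 9241, 9639 and 9124 in Col (adjusted p 0.024 in limma). AT4G31700, one of 2 genes for S6, the subunit's known substrate of S6 kinase, had 25552, 23094 and 26839.6 in the sextuple line and 15493, 17274 and 17429 in Col. AT5G18380, among the most abundant members but nearly identical to AT2G09990, had 39647, 34292 and 32814 in the sextuple line and 21521, 24464 and 23601 in Col. In each of the 3 every sextuple library was above every Col library. AT4G30800, first in the overexpressors, was here at 0.45 ± 0.16 (SE, adjusted p 0.138), close to the median. The lowest were AT5G59240 (S8), AT3G02560 (S7) and AT1G15930 (S12), at 0.24, 0.27 and 0.28. The 8 calls became 0 without sextuple replicate 1 or 2 or without Col replicate 1 or 2, 2 without Col replicate 3, and 8 without sextuple replicate 3, while the median stayed at 0.41 to 0.50. They also became 4 when libraries were scaled by all reads and 0 without the mean-variance trend of the test.

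**Figure D1:**
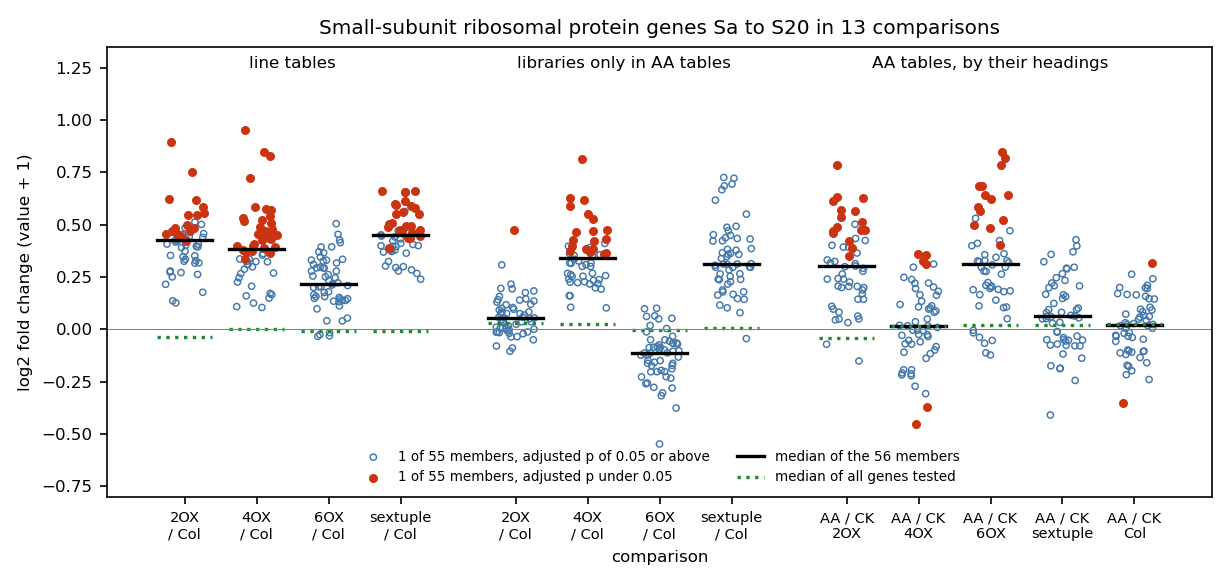
Each point is the log2 fold change (vertical axis) of 1 of 55 members in 1 of 13 comparisons, with line or AA first in each label; red points have an adjusted p under 0.05, black bars are the median of the 56 members and green dotted bars the median of all genes tested. The medians in the line tables lie at 0.42, 0.39, 0.21 and 0.45, and in the AA tables at 0.30 (2OX), 0.02 (4OX), 0.31 (6OX), 0.06 (sextuple) and 0.02 (Col).

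The 4 line tables use the same 3 Col libraries, so their results are not independent, and values are set side by side only to show each member's place. AT5G39850 (S9) was among the 10 highest of 55 in every line table, at 0.56 (2OX), 0.83 (4OX), 0.43 (6OX) and 0.66 (sextuple). AT3G02560 (S7), AT4G34670 (S3a) and AT5G62300 (S20) were among the 10 lowest in every one. AT4G34670 was at 0.22, 0.17, 0.04 and 0.30, against 0.50, 0.47, 0.25 and 0.55 for the other S3a copy, AT3G04840. S3a lies near the channel where messenger RNA leaves.

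Arranged by function, the members moved as follows in the line tables, each series of 4 log2 fold changes running 2OX, 4OX, 6OX, sextuple. Among the proteins that line the entry channel of messenger RNA (S2, S3 and S9), the major copies AT2G41840 of S2 and AT5G15200 of S9 were at 0.18, 0.17, 0.15, 0.32 and 0.33, 0.27, 0.15, 0.39, and none of these passed the adjusted p. Their minor copies AT3G57490 and AT5G39850 were higher in every table, and the 3 S3 genes lay between 0.20 and 0.49. Among proteins on the exit side (S5, S14 and S3a), the major S5 copy RPS5A (AT3G11940), which is needed for early cell divisions of the embryo, was at 0.45, 0.39, 0.33, 0.37 and its partner RPS5B (AT2G37270) at 0.40, 0.44, 0.29, 0.47. The 3 S14 genes spanned 0.15 to 0.56. For proteins of the head that meet transfer RNA or the large subunit (S15, S16 and S18), PFL (AT1G22780), an S18 copy named after the pointed first leaves of its mutant, was at 0.43, 0.41, 0.16, 0.55, against 0.35, 0.10, -0.03, 0.28 for RPS18C (AT4G09800). RPS13A (AT4G00100), an S13 copy whose mutant also has pointed leaves, was at 0.33, 0.21, 0.17, 0.30, against 0.47, 0.38, 0.10, 0.48 for the other S13 gene, AT3G60770. The 2 genes of S6 were at 0.45, 0.53, 0.33, 0.59 (AT4G31700) and 0.27, 0.32, 0.25, 0.47 (AT5G10360). The 4 S17 genes lay at 0.31 to 0.58, the 3 S4 genes at 0.14 to 0.45 and the 3 S10 genes at 0.13 to 0.66.

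**Figure D2:**
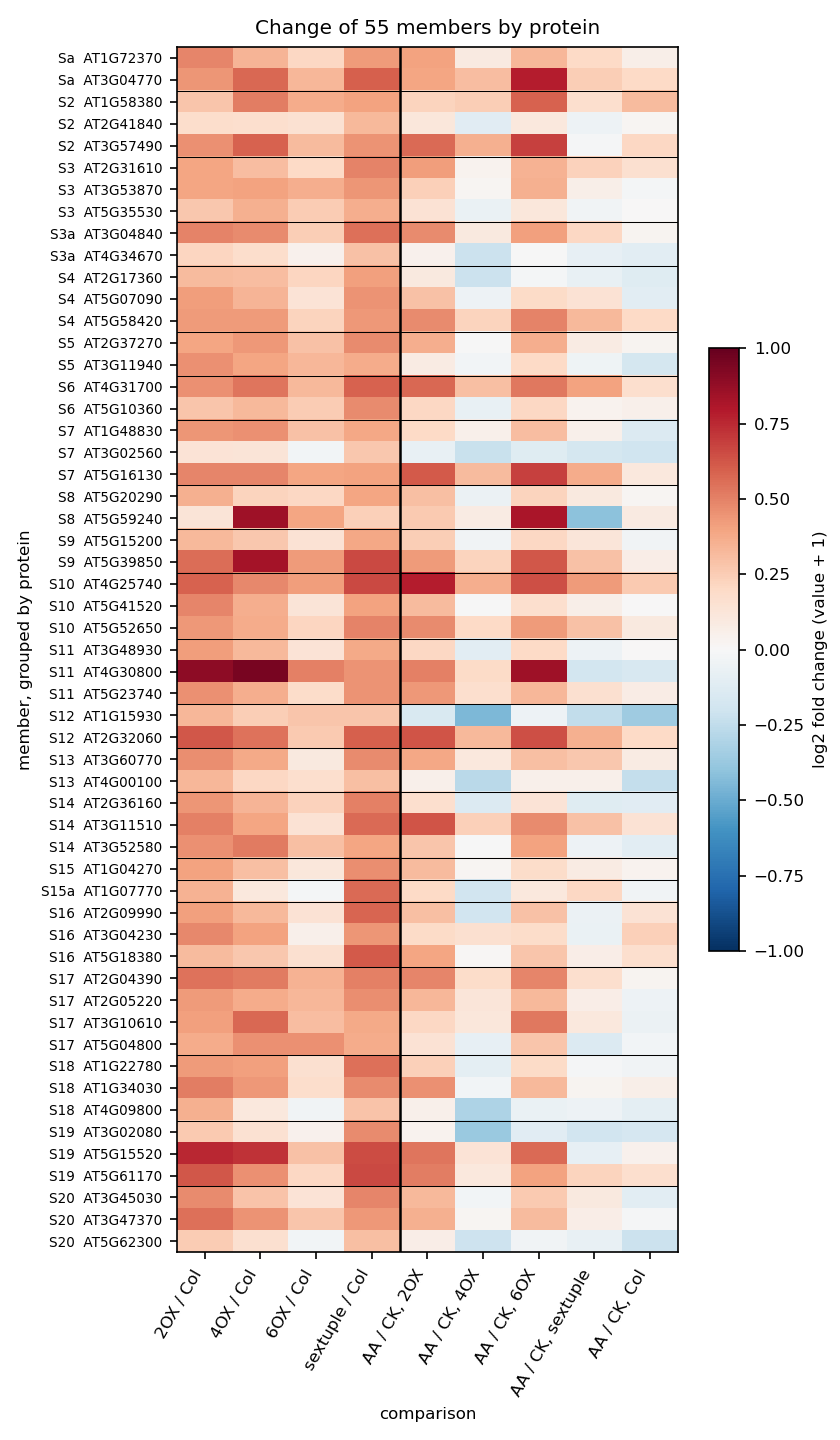
Each row is 1 of 55 members, grouped by protein with thin lines between proteins, and each column a comparison (4 line tables left of the thick line, 5 AA tables by their headings right of it); colour is the log2 fold change, red higher in the line or in AA. Within S12, S7 and S19 the copies differ in colour in the AA columns, as in S12 with 0.63 for AT2G32060 and -0.15 for AT1G15930 in 2OX.

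Copies of one protein did not always move together. In 2OX the widest gaps between copies were AT5G15520 over AT3G02080 in S19, by 0.49 on the log2 scale, and AT4G30800 over AT3G48930 in S11, by 0.48. In 4OX they were the same S11 pair (0.63) and AT5G59240 over AT5G20290 in S8 (0.62). The ratio of AT5G59240 to AT5G20290 was 0.00833, 0.0143 and 0.00812 in 4OX and 0.00617, 0.0066 and 0.00647 in Col. In 6OX the widest gap was AT5G16130 over AT3G02560 in S7 (0.42), with ratios of 1.61, 1.34 and 2.01 in 6OX and 1.15, 1.27 and 1.24 in Col. In the sextuple line it was AT2G32060 over AT1G15930 in S12 (0.32), with ratios of 0.862, 0.824 and 0.724 in the sextuple line and 0.641, 0.622 and 0.66 in Col. In these pairs the ratios of the line and of Col did not overlap. Of 47 pairs, the ratios did not overlap in 18 (2OX), 25 (4OX), 16 (6OX) and 16 (sextuple). Pairs of a protein can share a gene, and no share over pairs of other genes is given. The counts therefore do not show that copies part more often than other genes. With 3 libraries against 3 an exact two-sided permutation test cannot go below 0.10, so no p is given for a ratio.

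In the line tables the minor copies had the higher median for 2OX, 4OX and 6OX, by differing amounts, and not for sextuple. The 9 copies under 5000 per kb stood at a median of 0.59 on the log2 scale for 4OX (0.40 to 0.95), and the other 46 at 0.36 (0.10 to 0.54). The medians were 0.33 and 0.20 for 6OX, 0.46 and 0.42 for 2OX, and 0.45 and 0.45 for sextuple. Within a protein, the lowest copy had the larger log2 fold change in 14 of 20 proteins (2OX), 17 (4OX), 12 (6OX) and 14 (sextuple). Among the libraries headed CK in the AA tables, the medians of the 9 and the 46 were 0.18 and 0.05 for 2OX, 0.53 and 0.31 for 4OX and 0.49 and 0.30 for sextuple, but -0.28 and -0.10 for 6OX, the other way round. There the lowest copy had the larger value in 12, 16 and 16 of 20 proteins for 2OX, 4OX and sextuple, and in 8 for 6OX. These medians and counts are descriptions, with no test. The level that defines the minor copies is the median over all libraries, including those compared.

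**Figure D3:**
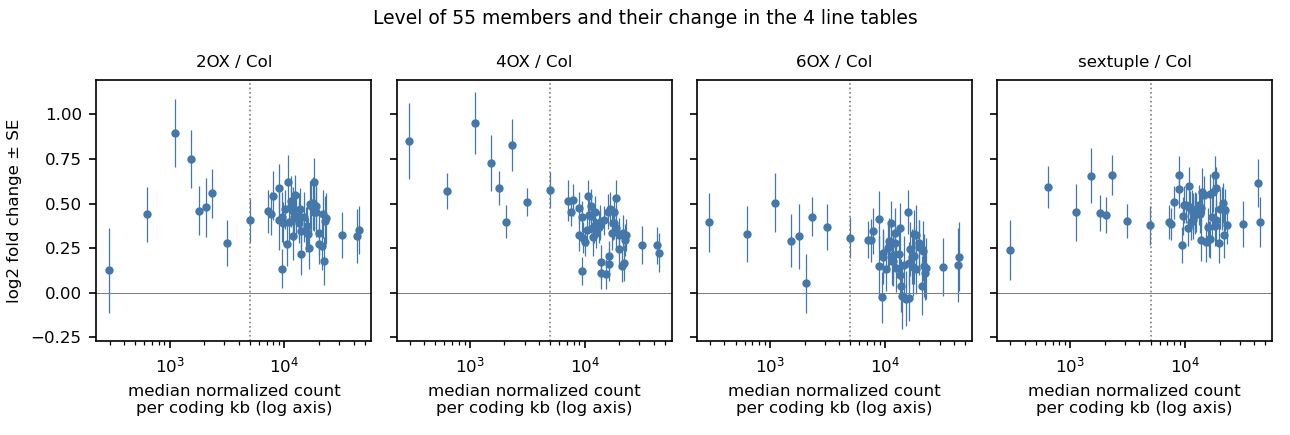
Each point is 1 of 55 members, with its median normalized count per coding kb on a log axis and its log2 fold change against Col with the SE as bar, in 1 panel per line table; the dotted line marks 5000 per kb. In 4OX the 9 points left of the line lie at 0.40 to 0.95 and the 46 right of it at 0.10 to 0.54, while in the sextuple line both groups have a median of 0.45.

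The line effect was also measured among the libraries headed CK in the AA tables, which the line tables do not hold. In 4OX 4 members rose (4.01% of all genes), 19 passed the adjusted p alone (6.1%), 48 had no overlap (16.3%) and all 56 were positive, with a median of 0.34 against 0.02 over all 22345 genes. AT5G59240 (S8), AT5G39850 (S9), AT2G09990 (S16, uncertain because of its near-identical copy) and AT5G15520 (S19) rose, by 0.81 ± 0.21, 0.63 ± 0.15, 0.62 ± 0.13 and 0.59 ± 0.15 on the log2 scale (SE). AT5G39850 had 1469.8, 1164 and 1383 normalized counts in 4OX and 687, 910.0 and 1023 in Col, with no overlap. AT3G02560 (S7), AT5G62300 (S20) and AT2G05220 (S17) were lowest, at 0.10, 0.11 and 0.16. edgeR and DESeq2 each called 3, and none was called without the mean-variance trend. The count was 0 without 4OX replicate 1, 1 without 4OX replicate 3, 2 without Col replicate 2 and 3 without each other library. In 2OX no member was called by limma, edgeR or DESeq2, against 8.28% of all genes. 2 of 56 had an unadjusted p under 0.05, 1 passed the adjusted p alone (11.3%) and 7 had no overlap (20.7%). Counts at an unadjusted p, here and for 6OX below, have no share of all genes beside them and are not read as a result. The 2OX median was 0.06 against 0.03 over all genes. The gene that passed was AT3G04230, a minor S16 copy, with 759.8, 821 and 742 in 2OX and 546, 549 and 576 in Col (0.47 ± 0.10 SE, adjusted p 0.00824 in limma). AT1G58380 (S2) and AT5G61170 (S19) followed at 0.31 and 0.22, and AT5G59240 (S8), AT5G62300 (S20) and AT5G16130 (S7) were lowest at -0.10, -0.09 and -0.08. Without Col replicate 2 a single member was called. Dividing-cell markers summed to 1667 to 1788 in these 2OX libraries and 1175 to 1340 in Col. Leaf markers summed to 130537 to 164689 in 2OX and 265273 to 490891 in Col, and the part of these markers was not tested. In 6OX no member was called by any of the 3 tools (1.56% of all genes were, by either criterion) and 3 had an unadjusted p under 0.05. There 8 members were positive, none was higher without overlap (10.8% of all genes), and the median was -0.11 against -0.00129 over all genes (-0.21 without 6OX replicate 2, and -0.13 to -0.07 without each other library). AT4G30800, first in the 6OX line table, was lowest here, with 233, 203 and 189.5 in 6OX and 279.6, 267 and 377 in Col (-0.55 ± 0.19 SE, adjusted p 0.193). AT5G59240 and AT3G10610 (S17), also minor copies, were next at -0.38 and -0.32, and AT5G04800 (S17), AT5G35530 (S3) and AT3G04230 (S16) were highest at 0.10, 0.10 and 0.06.

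In the sextuple line the libraries headed CK in the AA tables disagreed among themselves. No member was called by limma, edgeR or DESeq2 (1.17% of all genes were, by either criterion). 5 had an unadjusted p under 0.05, a count with no share of all genes beside it that is not read as a result. 55 were positive, 2 had no overlap (10.8%) and the median was 0.31 against 0.00456 over all genes. AT2G32060 (S12) had 2178, 3890.5 and 6753 normalized counts in the 3 sextuple libraries and 2790.1, 3139.8 and 2925 in Col, and AT5G18380 (S16) had 11875, 18119.9 and 32702 in the sextuple line and 13203, 12844 and 10351 in Col. In both genes replicate 1 of the sextuple line lay among or below Col and replicate 3 far above it. Over 55 members, replicate 1 was the lowest of the 3 in 55 and replicate 3 the highest in 52. AT2G09990 (S16), AT5G15520 (S19) and AT3G04230 (S16) had the largest log2 differences, 0.73, 0.72 and 0.69, and AT4G00100 (S13), AT5G16130 (S7) and AT5G62300 (S20) the smallest, -0.04, 0.08 and 0.10. The members took 1.21% to 2.13% of reads in these 3 libraries. Without sextuple replicate 1, 6 members were called and the median was 0.55, and without sextuple replicate 3 none was and the median was 0.09. Dividing-cell markers summed to 938.9 to 1292 in these sextuple libraries and 1134 to 1274 in Col, and leaf markers to 187329 to 403869 in the sextuple line and 255831 to 466479 in Col, and their part in the spread was not tested.

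**Figure D4:**
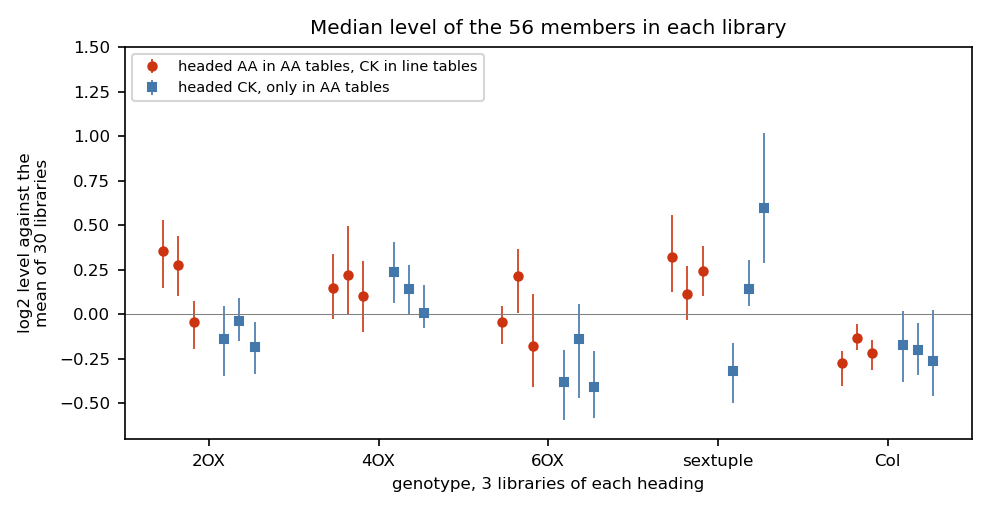
Each point is the median over the 56 members of their log2 level in 1 library minus their mean over 30 libraries, for 5 genotypes with 3 libraries of each heading, and bars run from the 10th to the 90th percentile of members. The 6 Col libraries lie between -0.27 and -0.13, while the sextuple libraries headed CK in the AA table lie at -0.32, 0.14 and 0.60.

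The difference of the line effect between the library sets was tested with an interaction term, in a fit over the 12 libraries of Col and a line. A positive value means a larger line effect in the line table's libraries. In 2OX a single member passed an adjusted p of 0.05, against 5.38% of all genes: AT5G16130 (S7), at 0.54 ± 0.15 (SE, adjusted p 0.0478 in limma). In the line table's libraries it had 7276, 6952 and 5967 normalized counts in 2OX and 4432, 5146 and 4896 in Col. In those headed CK in the AA tables it had 4448, 4559.5 and 4049 in 2OX and 4473, 4550.4 and 4631 in Col. So the 3 2OX libraries of the line table stood above the other 9. The median interaction over members was 0.32, against -0.07 over all 22650 genes, and 53 of 56 were positive. The count was 18, AT5G16130 among them, without 2OX replicate 3 of the line table. It was 0 without each other library except Col replicate 2 headed CK, where 1 other member passed and AT5G16130 did not. DESeq2 called 4 members and edgeR 1, and limma none without the mean-variance trend or with libraries scaled by all reads. AT4G30800 (S11) and AT4G25740 (S10) had larger values, 0.70 ± 0.28 and 0.56 ± 0.20, with adjusted p of 0.167 and 0.11. In 4OX, 6OX and the sextuple line no member passed in limma or edgeR, against 0.426%, 0.0044% and 0.814% of all genes. At an unadjusted p under 0.05 there were 0, 16 and 0 members, with no share of all genes given beside them, so these counts are not read as a result. DESeq2 called 4 members in 6OX (AT4G30800, AT5G16130, AT3G52580 and AT3G10610) and none in 4OX or the sextuple line. The median interactions were 0.04, 0.30 and 0.08. That of 6OX was 0.18 without 6OX replicate 2 of the line table, and 0.24 to 0.38 without each other library. AT4G30800 in 6OX had the largest value of the 55 ranked members, 1.02 ± 0.25 (SE, adjusted p 0.105 in limma).

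For AA against CK by the headings of the AA tables, no libraries are shared between genotypes, although the columns headed AA are also the line tables' columns. In Col no member was called by limma, edgeR or DESeq2 (10.4% of all genes were called higher and 7.81% lower). 5 had an unadjusted p under 0.05, a count with no share of all genes beside it that is not read as a result. 33 of 56 were positive, and the median was 0.02, the same as over all 22774 genes. A pair passed the adjusted p alone (12.9% of all genes higher, 11.3% lower): AT1G58380 (S2) at 0.32 ± 0.09 and AT1G15930 (S12) at -0.35 ± 0.10 (SE). AT1G15930 had 5856, 6729 and 5796 normalized counts headed AA and 7812, 7708 and 7888 headed CK. The sum of the 5 root markers was 1276 to 1377 in the libraries headed AA and 584.2 to 817.8 in those headed CK, and its part in these values was not tested.

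In 2OX the median was 0.30 against -0.04 over all genes. 4 members rose (11% of all genes) and AT1G59359 alone was called lower (14.1%), at counts too low to weigh. 16 passed the adjusted p alone upward (14%) and AT1G59359 downward (17.7%). AT4G25740 (S10) rose most, with 5515, 5291 and 3955 normalized counts headed AA and 2439.7, 3246 and 2841 headed CK (0.79 ± 0.16 SE, adjusted p 0.00366 in limma), and AT2G32060 (S12), AT3G11510 (S14) and AT5G16130 (S7) rose by 0.63, 0.63 and 0.61. AT1G15930, AT3G02560 and AT3G02080, copies in S12, S7 and S19, were lowest at -0.15, -0.07 and 0.03. The root markers summed to 1212 to 1284 headed AA and 551.6 to 659.7 headed CK, and were higher in the columns headed AA in every genotype. The count of 5, both directions, was 4 in edgeR and in DESeq2, 3 without the mean-variance trend, 15 without 2OX replicate 3 headed AA, 3 without replicate 1 of either heading, 2 without replicate 2 headed AA and 1 without replicate 3 headed CK.

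In 6OX the median was 0.31 against 0.02, 9 members rose (12.6% of all genes) and none fell (13.7%), and 14 passed the adjusted p alone (14.1% higher, 15.7% lower). AT4G30800 (S11), AT5G59240 (S8) and AT3G04770 (Sa) led, at 0.85 ± 0.18, 0.82 ± 0.21 and 0.78 ± 0.19 (SE). Sa is the plant relative of the laminin receptor protein. AT3G04770 had 606, 924 and 719 normalized counts headed AA and 495, 376 and 423 headed CK, with no overlap, while its major partner AT1G72370 was at 0.33 (adjusted p 0.214). The other 6 were AT5G16130, AT3G57490, AT4G25740, AT2G32060, AT5G39850 and AT1G58380, at 0.69 to 0.59. AT3G02560, AT3G02080 and AT4G09800 were lowest, at -0.12, -0.11 and -0.07. The count was 5 without 6OX replicate 2 headed AA, without replicate 3 headed CK, or without the mean-variance trend. Read against the 12.6% of all genes, 9 of 56 is not far from the background.

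In 4OX and the sextuple line no member was called by limma, edgeR or DESeq2, although over all genes 12.8% and 12.6% passed as higher, and 12.9% and 13.4% as lower. At an unadjusted p under 0.05 there were 10 members in 4OX and none in the sextuple line. No share of all genes is given beside these counts, so they are not read as a result. The medians were 0.02 and 0.06, against 0.02 over all genes in both. In 4OX 4 members passed the adjusted p alone upward (16.7% of all genes), AT4G25740, AT3G57490, AT2G32060 and AT5G16130, at 0.36 to 0.31. Another pair passed it downward (18%), AT1G15930 (S12, -0.45 ± 0.12) and AT3G02080 (S19, -0.37 ± 0.11; SE). AT1G15930 had 10036, 11089.8 and 9457 normalized counts headed AA and 15028, 14338 and 12511 headed CK in 4OX, with no overlap. In the sextuple line no member passed it (13.6% of all genes higher, 14.8% lower), and AT4G25740 (S10), AT4G31700 (S6) and AT5G16130 (S7) were highest at 0.43, 0.40 and 0.37, while AT5G59240 (S8), AT1G15930 (S12) and AT3G02080 (S19) were lowest at -0.41, -0.24 and -0.19. Without sextuple replicate 1 headed CK 1 member was called, and without replicate 3 headed CK 5 were.

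The level of the whole set in the AA tables depends on the scaling, while a common scaling factor leaves the order of members as it is. With libraries scaled by all reads instead of by the median ratio, the median of all genes moved to 0.15 for 2OX, 0.27 for 4OX, 0.30 for 6OX, 0.31 for sextuple and 0.26 for Col, and the members' median to 0.50, 0.28, 0.59, 0.36 and 0.26. The members' median minus that of all genes was then 0.35, 0.01, 0.30, 0.05 and -0.00138, against 0.34, 0.000908, 0.29, 0.04 and -0.00414 before. The calls among members were 22 (2OX), 3 (4OX), 28 (6OX) and 3 (sextuple). Of all genes, the higher and lower calls became 3950 and 2359 for 2OX (2498 and 3218 before), 5157 and 1979 for 4OX (2986 and 3002), 5173 and 2155 for 6OX (2906 and 3149), 5219 and 2059 for sextuple (2915 and 3091) and 3993 and 1204 for Col (2376 and 1779). By the median-ratio scale, AT1G15930 (S12), AT3G02560 (S7), AT3G02080 (S19) and AT2G17360 (S4) were among the 10 lowest of 55 in every AA table, and AT2G32060 and AT4G25740 among the 10 highest in every one.

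The ratios of copies, in which depth and scaling cancel, parted by heading in every genotype for S7 and S19, and in 4 of 5 genotypes for S12. This was not particular to them. The S6 ratio of AT4G31700 to AT5G10360 also parted in every genotype, with log2 differences of 0.12 in Col, 0.37 in 2OX, 0.37 in 4OX and 0.32 in 6OX. In the sextuple line AT4G31700 made up 49.3% to 52.1% of S6 transcripts headed AA and 42.1% to 45.9% headed CK. Pairs of S4, S10 and S14 parted in every genotype as well. In the sextuple line AT5G58420 made up 29.0% to 30.8% of S4 transcripts headed AA and 24.6% to 26.7% headed CK. Its partner AT2G17360 made up 32.0% to 33.6% and 36.7% to 38.5%. In the same order, AT4G25740 made up 24.6% to 25.4% and 21.1% to 22.5% of S10, and AT5G41520 41.1% to 41.9% and 44.3% to 48.1%. In S14 AT3G11510 made up 42.0% to 43.2% and 33.6% to 38.3%, and AT2G36160 43.2% to 44.1% and 48.2% to 50.8%. In S12, a protein of the head's beak whose loss alters cell competition in flies, the ratio of AT2G32060 to AT1G15930 in Col was 0.641, 0.622 and 0.66 in libraries headed AA and 0.415, 0.469 and 0.43 in those headed CK. In 2OX it was 1, 0.755 and 0.635 headed AA and 0.435, 0.472 and 0.457 headed CK. In 4OX it was 0.776, 0.772 and 0.81 headed AA and 0.466, 0.43 and 0.478 headed CK. Every library headed AA thus lay above every library headed CK in these genotypes and in 6OX, where the ratios were 0.59, 0.789 and 0.545 headed AA and 0.34, 0.432 and 0.408 headed CK. In the sextuple line the groups overlapped, with 0.862, 0.824 and 0.724 headed AA and 0.326, 0.529 and 0.851 headed CK. AT2G32060 made up 44% ± 0.652 of S12 transcripts in 4OX libraries headed AA and 31.4% ± 1.2 in those headed CK (SD, n = 3 each).

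In S7 the ratio of AT5G16130 to AT3G02560 did not overlap in any genotype. It was 1.53, 1.54 and 1.59 headed AA and 1.06, 0.953 and 0.901 headed CK in 2OX, and 1.15, 1.27 and 1.24 headed AA and 0.868, 0.999 and 1.11 headed CK in Col. The difference on the log2 scale was 0.68 for 2OX, 0.54 for 4OX, 0.81 for 6OX, 0.54 for sextuple and 0.30 for Col. In S19, a protein needed to mature the small subunit's RNA and mutated in a human anaemia, AT5G61170 to AT3G02080 was 1.09, 1.12 and 1.09 headed AA and 0.891, 0.734 and 0.769 headed CK in 4OX, and 0.935, 0.868 and 0.877 headed AA and 0.681, 0.706 and 0.733 headed CK in Col. This pair was also apart in all 5 genotypes, with log2 differences of 0.34 (Col) to 0.51 (6OX). The pairs of S12, S7 and S19 were picked with these values seen, and not by size alone. In S19 AT5G15520 parted more widely from AT3G02080 in 2OX, by 0.51 against 0.48 for the pair shown. The values are therefore a description. Over all 47 pairs, 32 did not overlap for 2OX, 28 for 4OX, 29 for 6OX, 18 for sextuple and 20 for Col. No share over pairs of other genes is given beside these counts either. The lowest copy of a protein had the larger log2 fold change in 15 to 18 of 20 proteins, by genotype. The medians of the 9 minor copies and the other 46 were 0.39 and 0.30 for 2OX, 0.20 and -0.01 for 4OX and 0.62 and 0.28 for 6OX. They were 0.09 and 0.006 for Col, but -0.01 and 0.06 for sextuple, the other way round. Here too the level that ranks the copies comes from the same libraries.

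**Figure D5:**
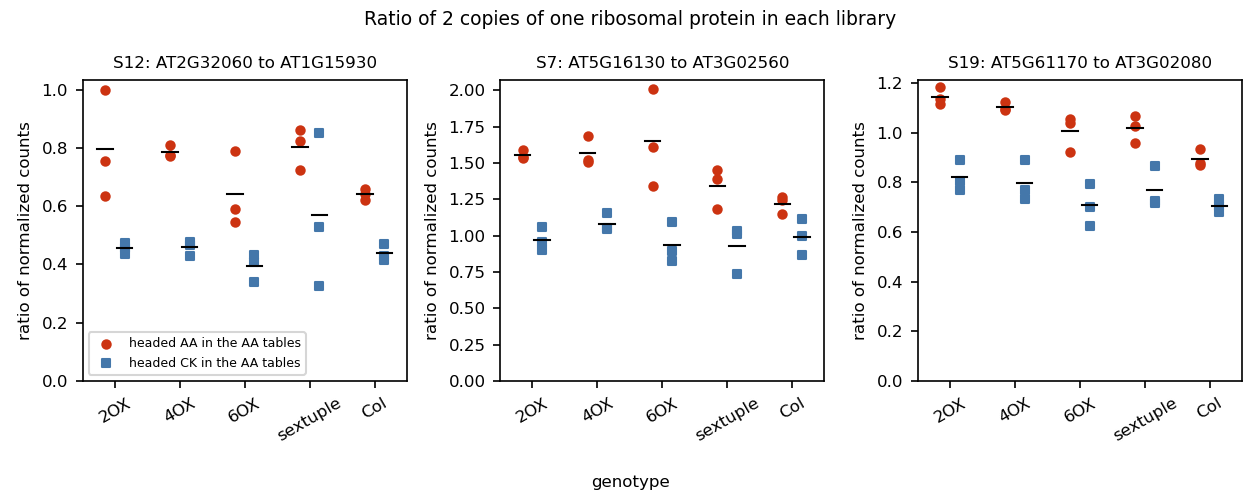
Each point is the ratio of normalized counts of 2 copies in 1 library, for S12, S7 and S19, in 5 genotypes; circles are libraries headed AA in the AA tables, squares those headed CK, and bars are means of 3. Circles lie above squares without overlap for S7 and S19 in all 5 genotypes and for S12 in all but the sextuple line, where 1 square reaches 0.851.

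Other ribosomal genes were described by lists. Over all genes of the line tables, 3.26% (2OX), 2.77% (4OX), 0.138% (6OX) and 0.76% (sextuple) were called higher. No share of all genes is given beside lower calls or counts at an unadjusted p in these lists, so those are not read as a result. Of 26 tested genes for small subunit proteins S21 to S30, 4 rose for 2OX, 3 for 4OX, none for 6OX and 5 for sextuple, with medians of 0.48, 0.38, 0.21 and 0.50, and none fell. Of 76 large subunit genes 6, 5, 0 and 15 rose, with medians of 0.43, 0.39, 0.23 and 0.48, and none fell. In 6OX 8 and 18 of these genes had an unadjusted p under 0.05. Of 12 ribosome biogenesis factors 3 rose in 2OX and 9 in 4OX, with medians of 0.52 and 0.75, and none was called in 6OX or the sextuple line in limma, where the medians were 0.36 and 0.34 and 8 had an unadjusted p under 0.05 in each. The 6 genes of TOR and S6 kinase signalling had medians of -0.41, -0.19, 0.07 and -0.38, and 1 was called, lower in the sextuple line. By the AA tables' headings, RACK1, a scaffold protein bound to the small subunit and coded by 3 genes, had 2 genes called higher for each overexpressor, 1 for sextuple and none in Col, where 2 had an unadjusted p under 0.05. Over all genes, 11% (2OX), 12.8% (4OX), 12.6% (6OX), 12.6% (sextuple) and 10.4% (Col) were called higher by the AA tables' headings. Against Col, 1 of the 3 RACK1 genes was called, in 4OX.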

How the data were processed

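RNA from 30 libraries, 3 per group, was sequenced by the authors, and reads were mapped to TAIR10 (Bowtie 0.12.2 in the submitters' processing notes). The methods name Cufflinks and RPKM, which is not what the tables hold. The counting tool and its use of strand are not given in the sources used here. The 9 deposited tables hold a normalized signal per gene, made by the authors as read counts divided by a median-of-ratios size factor set within each table: 100% of 1266084 values gave whole reads (relative tolerance 1e-05). Genes with fewer than 5 reads over a table's libraries are not in it. All 54 per-library columns were used, matched to samples by their XZHU names. The tables also carry the authors' own mean, log2 fold change, its error, test statistic and p-values, which were not used.

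Here the values were analysed as log2(value + 1), for genes with a mean of at least 1, with limma 3.58.1 (moderated with a mean-variance trend, R 4.3.3) within each table, and p-values were adjusted by Benjamini-Hochberg over all genes tested. A call needed an adjusted p under 0.05 and a fold over 1.5; the interaction needed the adjusted p alone. Fold changes of low genes are understated on this scale. For lines among the libraries headed CK in the AA tables, and for interactions, recovered reads were scaled together. Alternatives were the recovered reads in edgeR 4.0.16 or in DESeq2 1.42.0, and another pseudocount, filters, scalings, the replicate block and leaving out each library. The test was checked on simulated data. Levels were divided by coding length (TAIR10.1, RefSeq), and promoter windows were read from the same assembly. Members and lists were chosen with earlier results of these data known. In each comparison the text names the 3 highest and 3 lowest members, those called, those at an end of the order in every table, and the most divergent copies; other genes named for a role were chosen after their values were seen. The replicate numbers were not taken as pairs.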

Additional observations from a re-analysis of the deposited data

Results flagged for a closer look

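The effect of 2OX on AT5G16130, a gene for S7, differed between the libraries of the line table and those headed CK in the AA tables. The difference was 0.54 ± 0.15 on the log2 scale (SE, 95% interval 0.23 to 0.86), with an adjusted p of 0.0478 in limma's interaction test over 12 libraries. It was the only 1 of the 56 members to pass in limma, against 5.38% of all genes, so the call does not stand above the background. edgeR gave an adjusted p of 0.0472 for this gene and DESeq2 0.00623. In limma the call held without 2OX replicate 3 of the line table, and it was lost when any of the other 11 libraries was left out, without the mean-variance trend, with libraries scaled by all reads, and with the replicate block.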

How the results depend on the processing

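No called value of a named member changed sign under any alternative run. Medians near 0 did so when 1 library was left out: those for AA in Col, 4OX and sextuple, and those of the 4OX and sextuple interactions. The number of called members moved more. Without the mean-variance trend it was 0 for 2OX, 4OX and sextuple against Col, 3 and 5 for AA in 2OX and 6OX, 0 for 4OX among the libraries headed CK in the AA tables, and 0 for the 2OX interaction. With all reads as the scale it was 12 for 4OX and 4 for sextuple against Col, 22, 3, 28 and 3 for AA in 2OX, 4OX, 6OX and sextuple, 1 for 2OX among the libraries headed CK, and 0 for the 2OX interaction. With nuclear reads other than rRNA as the scale it was 12 and 4, and 22, 3, 26 and 2. The medians under the all-read scale were 0.47 for 4OX against Col, 0.50, 0.28, 0.59 and 0.26 for AA in 2OX, 4OX, 6OX and Col, and 0.17 and 0.45 for 2OX and 4OX among the libraries headed CK. Under the nuclear scale they were 0.47, and 0.50, 0.28, 0.58 and 0.18. With no filter on low values 4OX among the libraries headed CK had 2 calls. DESeq2 called 4 members in the 2OX and 4 in the 6OX interaction. Why the counts moved was not tested.

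Leaving out 1 library at a time, calls against Col ranged over 0 to 22 (2OX), 0 to 3 (4OX) and 0 to 8 (sextuple). They ranged over 1 to 15, 5 to 11 and 0 to 5 for AA in 2OX, 6OX and sextuple. Among the libraries headed CK they ranged over 0 to 1 (2OX), 0 to 3 (4OX) and 0 to 6 (sextuple), and in the 2OX interaction over 0 to 18. The medians ranged over 0.12 to 0.30 for 6OX against Col, -0.21 to -0.072 for 6OX among the libraries headed CK, 0.26 to 0.46 for the 2OX interaction, 0.18 to 0.38 for the 6OX interaction and -0.16 to 0.31 for the sextuple interaction. A fit that leaves a group with 2 libraries takes the spread from both groups.

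With the replicate number as a block, sextuple against Col had 0 calls and the 2OX interaction 0, AA in 2OX had 4, and the counts of the other comparisons were those without the block. Deviations of same-numbered libraries from their group means correlated at -0.44 to 0.44 over the comparisons. For 2OX against Col in the line table they were 0.099, 0.15 and 0.14, and for 4OX -0.015, 0.37 and 0.39. No pairing is stated in the labels, so the numbers were not treated as pairing the samples. These correlations do not exclude a pairing. Depth limits 2OX replicate 1 of the line table (2.56 M reads), and 3 libraries a group limit every test.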
